A study of Homo sapiens with 52 samples.

Results

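ITGB1BP1 was knocked down in TeloHAEC, a human aortic endothelial line immortalised with telomerase, and poly-A RNA was sequenced from 2 libraries, C7 and G8, each carrying a single guide RNA titled for ITGB1BP1. The members were chosen by their titles: these 2 libraries and the 4 libraries with non-targeting guides, B6, D2, D8 and F4, which makes 6 of the 52 libraries of the series and 6 of its 24 CRISPRi libraries. All 6 came from the same engineered line, which carries a doxycycline-inducible dCas9-KRAB-BFP repressor and rtTA and was sorted for BFP. All 6 received a guide by lentivirus with blasticidin selection and then 2 µg/ml doxycycline for 5 days, so the controls share the repressor, the drug and the virus. The libraries of the CCM2 knockdown (C2 and F6) and the PDCD10 knockdown (D11 and G1), made in the same way, served as comparisons, as did the mean of all 9 other targets in 18 libraries. Each guide had 1 library, and no label states that these libraries came from separate cultures. The p-values therefore measure only the spread between libraries of a group, pooled over all 24 CRISPRi libraries and 11 groups.

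ITGB1BP1, also known as ICAP1, binds the cytoplasmic tail of the integrin β1 chain and holds that integrin in a less active state. It also binds KRIT1, which forms the cerebral cavernous malformation (CCM) complex with CCM2 and PDCD10. In endothelium this complex restrains the kinase MEKK3 (MAP3K3), which acts through MEK5 and ERK5 to raise the transcription factors KLF2 and KLF4. CPSF3, the gene next to ITGB1BP1, encodes the endonuclease that cuts pre-mRNA at the polyadenylation site and that also cuts the 3′ end of replication-dependent histone pre-mRNA.

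The guides are shown first, because those given on the labels do not all match the titles. Each line gives the target site and, in capitals, the PAM next to it, read 5′ to 3′ from transcript or RefSeq promoter sequence on GRCh38.
Guide on the label of C7: aaggccgcggcactcccacgCGG
Guide on the label of G8: gccgcggtatataagccggcGGG
Guide on the label of G10, a library titled KLF2: gaagtccgcaacccggggatGGG
The C7 site lies at chr2:9423418-9423437 on the minus strand, in the 5′ UTR of exon 1 of ITGB1BP1 and within the RefSeq promoter window of CPSF3. The G8 label sequence matched the KLF2 promoter at chr19:16324687-16324706, on the minus strand. The sequence on the label of G10 matched exon 1 of ITGB1BP1 at chr2:9423390-9423409, on the minus strand. The levels followed the titles and not these sequences. ITGB1BP1 was at 9.61 TPM (transcript abundance scaled to gene length and library size) in G8 and 61.5 in G10, while KLF2 was at 486 TPM in G8 and 6.12 in G10. Groups were therefore kept as titled, and values without G8 are given below.

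ITGB1BP1 was at 8.72 TPM in C7 and 9.61 in G8, against 66.8, 70.5, 70.7 and 62.5 in B6, D2, D8 and F4. Both guides were far below every control, at 13.5% of the control mean of 67.7 ± 3.86 TPM (SD, n = 4). The difference was -2.76 ± 0.14 (SE) on the log2(TPM + 1) scale used throughout, with an adjusted p of 9.94e-10 (limma, Benjamini-Hochberg). CPSF3 starts 85 bases away on the opposite strand (chr2:9423654-9473101, plus strand, against chr2:9403475-9423569, minus strand, for ITGB1BP1, RefSeq on GRCh38.p14). CPSF3 was at 2.69 TPM in C7 and 3.43 in G8, against 24.6, 28.7, 25.3 and 26.4 in the controls. It fell to 11.6% of the control mean, by 2.75 ± 0.11 log2 units (limma adjusted p = 5.16e-11). The neighbour was thus lowered as far as the target by both guides, and effects of either loss cannot be told apart in these libraries. In the 18 libraries of the other targets CPSF3 lay between 19.98 and 29.4 TPM (median 25.6). The remaining 7 genes listed for the neighbourhood were not called: KIDINS220, MBOAT2, ASAP2, IAH1, ADAM17, YWHAQ and TAF1B differed by -0.39 to 0.36. The lowest of these was IAH1, an esterase gene, at 31.0 TPM in C7 and 44.5 in G8 against 46.6 to 52.0 in controls (limma adjusted p = 0.0682). IAH1 was called with C7 alone and not with G8 alone. Against the PDCD10 libraries IAH1 was lower by 0.64 (limma adjusted p = 0.0367), a call lost without C7 (0.462) or D11 (0.210).

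**Figure D1:**
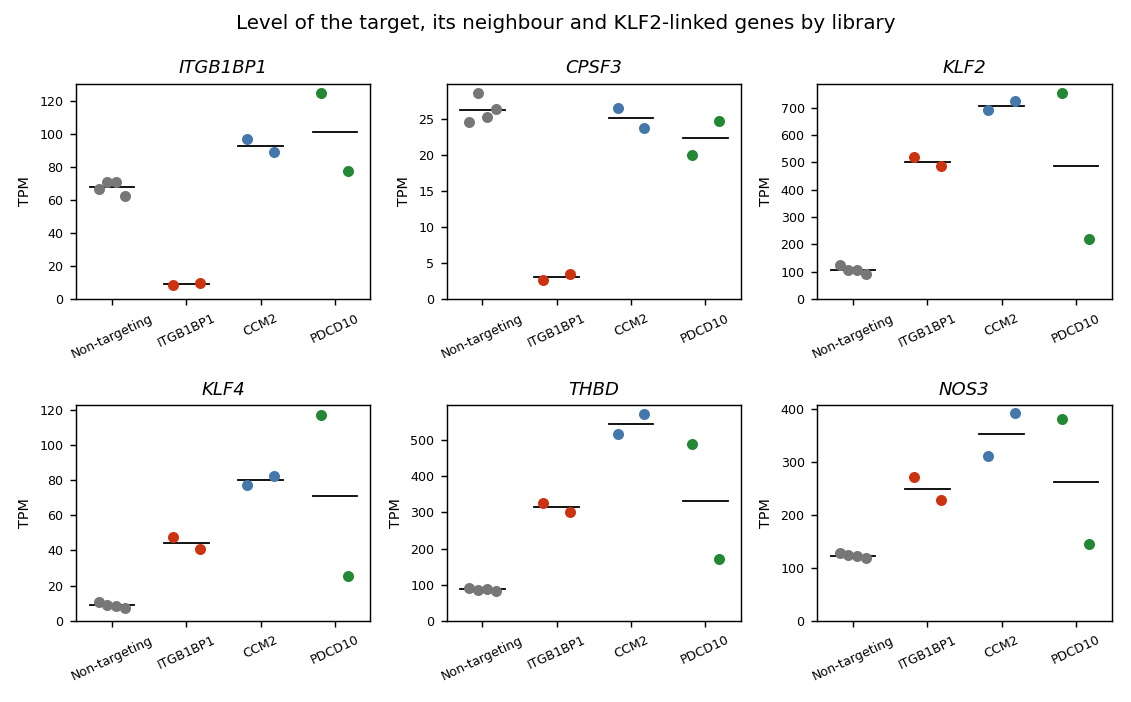
TPM (vertical axes, from 0) of the target, its neighbour and 4 KLF2-linked genes. Each point is 1 library and each line is the mean of the group named below it. ITGB1BP1 and CPSF3 are low only in the ITGB1BP1 group among the 4 groups drawn, and both ITGB1BP1 libraries lie above all 4 controls for KLF2, KLF4, THBD and NOS3.

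Across the transcriptome, 14143 genes were tested and a gene was called when its limma adjusted p was under 0.05. Against the non-targeting libraries 1089 genes (7.7%) were called, of which 472 (3.34%) were higher and 617 (4.36%) were lower. Changes of at least 1 log2 unit were mostly rises, with 189 higher and 60 lower. Rescaling the libraries by the median of ratios called 1031 genes with 62.9% of them higher, against 43.3% here, so the split between rises and falls depends on the scaling. The median of all genes tested was -0.08. Of the called genes, 471 of the 472 higher and all 617 lower did not overlap between the 2 and the 4 libraries. Of all genes tested 13.2% lay above and 24.9% lay below all controls. The calls were made on these same libraries, so the lack of overlap follows from the choice and adds no support. With 1 guide left out 221 genes (without C7) or 442 (without G8) were called, and 704 without the control D8. The CRISPRi columns summed to between 96.8% and 97.2% of what complete TPM columns add up to, 12299 to 12682 symbols reached 1 TPM, and the number of reads is unknown.

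**Figure D2:**
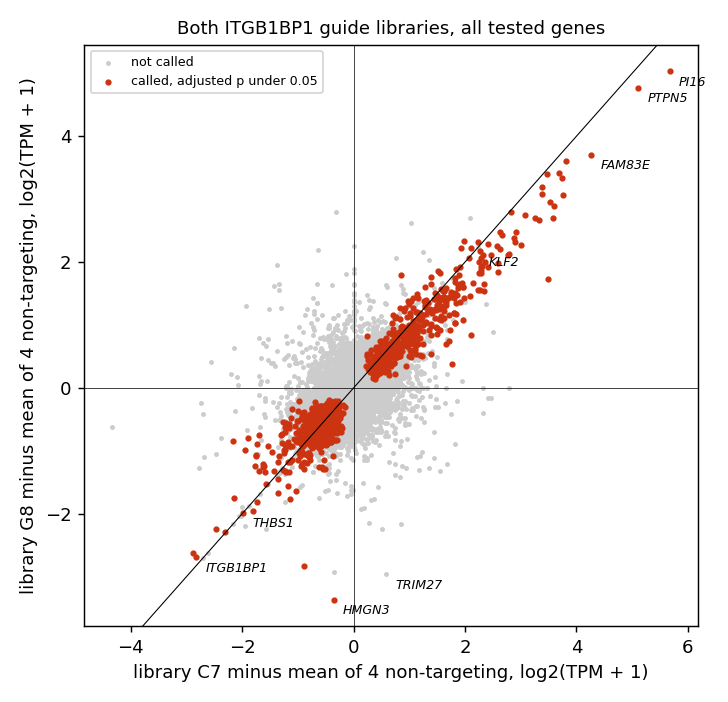
Each point is 1 of the 14143 genes tested, with its difference from the mean of the 4 non-targeting libraries in C7 (horizontal) and in G8 (vertical), in log2(TPM + 1). Red points were called; both axes share the same controls, and HMGN3 and TRIM27 lie low in G8 alone.

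Most of the genes tested in a list of KLF2, KLF4 and genes linked to them in endothelium were higher. KLF2, KLF4 and THBD, which are in this list, were markers given with the experiment. The list was written with some earlier results of these data known, so its count is not an independent test. Of the 13 KLF2-linked genes tested (of 16 listed), 9 were higher and 0 lower, where 3.34% of all genes were called higher, and their median was 1.19. KLF2 was at 519 TPM in C7 and 486 in G8, against 123, 107, 108 and 91.3 in the controls. That is 4.68 times the control mean (difference 2.22 ± 0.54, limma adjusted p = 0.0171). KLF4, the related factor, was at 47.7 and 40.8 TPM against 10.5, 9.06, 8.41 and 7.07. Its difference was also 2.22, with an SE of 0.39 (limma adjusted p = 0.00212). THBD, the thrombomodulin that turns thrombin to an anticoagulant role, was at 327 and 302 TPM against 90.0, 85.2, 89.3 and 82.9 (1.84 ± 0.41, limma adjusted p = 0.0103). NOS3, the endothelial nitric oxide synthase, was at 272 and 228 TPM against 119 to 128 (1.01 ± 0.26, limma adjusted p = 0.0256). For each of these genes both guides lay above all controls. The exact two-sided permutation test of 2 libraries against 4 gave p = 0.133 for ITGB1BP1, CPSF3, KLF2, KLF4 and THBD, the smallest value it can give. With 1 guide alone the limma call was lost for KLF2 (2.18 without C7 and 2.27 without G8) and for THBD (1.79 and 1.90). KLF4 kept its call (2.11 and 2.33), though only just under the threshold without C7. NOS3 lost its call with either guide alone, without the controls D8 or F4, and with no filter on low values. Without C7 4 of the 9 members were called and without G8 5 were.

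The other called members included the largest rise of all. PI16, a peptidase inhibitor, was at 147 TPM in C7 and 93.6 in G8 against 1.08 to 3.12 in the controls (5.36 ± 0.59, limma adjusted p = 4.33e-05). AQP1, a water channel, was at 117 and 95.9 TPM against 6.34 to 9.23 (3.55 ± 0.36). PLAT, the tissue plasminogen activator, was at 2138 and 1822 TPM against 532 to 609 (1.76 ± 0.35). TEK, the angiopoietin receptor TIE2, and DHH, a hedgehog ligand, rose by 1.03 and 1.07. PLAT lost its call without C7 and TEK with either guide alone. The 4 members that were not called were SEMA7A (1.19, limma adjusted p = 0.0647), CYP1B1 (0.62, 0.239), CALCRL (0.27, 0.281) and ASS1 (-0.06, 0.940). PLAT, TEK, DHH and these 4 fall outside the rule for named genes and are given to complete the list.

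The CCM2 and PDCD10 knockdowns give the scale of these rises, without the controls entering the comparison. CCM2 itself was at 15.6% and 4.45% of its control mean in C2 and F6. PDCD10 was at 12.9% in D11 and 40.9% in G1, so G1 is a partial knockdown. KLF2 was at 690 and 723 TPM in the CCM2 libraries, 754 in D11 and 221 in G1. THBD was at 518 and 572 TPM in the CCM2 libraries, 489 in D11 and 172 in G1. The ITGB1BP1 libraries thus lay below both CCM2 libraries and D11, and above G1, for KLF2, KLF4, THBD and NOS3. None of these 4 differences was called: against CCM2 they ran from -0.84 (KLF4) to -0.49 (limma adjusted p from 0.478 to 0.820), and against PDCD10 from -0.31 to 0.30. ITGB1BP1 was itself higher in the CCM2 libraries, at 97.0 and 88.7 TPM, and at 124 in D11.

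Of all genes tested 1.21% (171) were called against CCM2 (0.46% higher, 0.749% lower) and 1.39% (197) against PDCD10 (0.679% higher, 0.714% lower). Against the mean of the other 9 targets 7.38% were called, 3.17% higher and 4.21% lower. Leaving out the partial library G1 raised the second count to 1148 genes, and leaving out C7 lowered it to 35. PTPN5, a tyrosine phosphatase, was between the 2 comparison groups. It was at 58.6 and 46.1 TPM in C7 and G8, 0.656 to 0.858 in the controls, 110 and 320 in the CCM2 libraries, and 23.1 and 13.1 in the PDCD10 libraries. It was lower than in the CCM2 knockdown by 1.84 log2 units (limma adjusted p = 0.0107) and 1.52 higher than in the PDCD10 knockdown (limma adjusted p = 0.0336). The first call was lost without G8 (adjusted p = 0.129) or F6 (0.169), and the second without C7 (0.328), G8 (0.0823) or G1 (0.0916).

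A further 5 of the 10 largest rises were each at least 39.6 TPM in both knockdown libraries. NPPC, the C-type natriuretic peptide, was at 82.5 and 71.1 TPM against 2.81 to 7.80 (3.71). ADAMTS1, a protease that cuts versican, was at 235 and 222 TPM against 16.6 to 23.8 (3.43). ACP5, an acid phosphatase, was at 64.5 and 39.6 TPM against 3.18 to 4.29 (3.41). IGFBP5, a binding protein for insulin-like growth factors, was at 1808 and 1108 TPM against 112 to 186 (3.24), and lost its call without C7. AL049629.2, a symbol with no further name in the table, rose by 3.54. Each of these 5 lay above all controls in both libraries, and none was called against CCM2 or PDCD10. FAM83E and ITGB4 complete the 10 largest rises and are described with their groups below.

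The largest falls after ITGB1BP1 and CPSF3 were smaller. THBS1, the matrix glycoprotein thrombospondin-1, was at 51.7 and 51.8 TPM against 207, 183, 224 and 217 in the controls (-1.98 ± 0.30, limma adjusted p = 0.000603). EDN1, the vasoconstrictor endothelin-1, was at 6.37 and 5.999 TPM against 16.7, 27.5, 25.9 and 25.4 (-1.77 ± 0.37, limma adjusted p = 0.00772), and lost its call with either guide alone. FLRT2, an adhesion protein of neurons and endothelium, was at 2.74 and 2.35 TPM against 10.5 to 13.4 (-1.88). PRSS2, a trypsinogen gene, was at 0.779 and 1.35 TPM against 6.03 to 9.12 (-1.95). RASSF2 fell by 1.55 (limma adjusted p = 0.0388, lost when any 1 of the 6 libraries was left out). TBC1D3C, a member of a family of near-identical copies among which reads may be split, was at 0.000376 and 0.175 TPM against 2.07 to 8.64 (-2.35), lost its call without C7, and is uncertain. TBC1D3C was also called lower than in the CCM2 (-2.69) and PDCD10 (-2.45) libraries, calls lost without C7 or G8 (adjusted p from 0.0905 to 0.263), the first also without C2 (-1.94, 0.164) and the second without D11 (0.118). AC012184.2 was at 3.36 and 0.130 TPM against 4.59 to 10.1 and lost its call without G8 or without B6, D8 or F4. HMGN3, a nucleosome-binding protein, was at 63.6 TPM in C7 but 6.99 in G8, against 73.0 to 92.1, and was not called without G8. Most of the HMGN3 difference therefore sits in 1 guide library.

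Within the CCM complex and its partners 2 of 11 genes tested were higher and 0 lower, where 3.34% and 4.36% of all genes were. Their median was 0.20. HEG1, the membrane anchor of KRIT1, was at 77.2 and 64.8 TPM against 22.2 to 25.1 (1.53 ± 0.25, limma adjusted p = 0.00112). CCM2L, a paralogue of CCM2, was at 115 and 87.3 TPM against 48.3 to 58.9 (0.89 ± 0.21, limma adjusted p = 0.0149; not called without C7). CCM2, PDCD10 and KRIT1 differed by 0.06, -0.17 and -0.11, and TLNRD1, a further partner, by 0.27, none of them called. TLNRD1 was at 45.7 and 42.3 TPM here and at 89.9 and 94.1 in the CCM2 libraries. That difference of -1.05 was called (limma adjusted p = 0.0473) and was lost when C7, G8, C2 or F6 was left out (adjusted p from 0.130 to 0.256). In the MEKK3 to ERK5 cascade limma called 0 of 7 genes (median 0.14), with 1 at an unadjusted p under 0.05. MEF2A, its target factor, was at 43.2 and 39.5 TPM against 23.3 to 31.8 (0.60, limma adjusted p = 0.116), MAP3K3 differed by -0.22 and MAP2K5 by 0.22. Among 10 further genes reported to rise on loss of the complex, 2 were called higher and 0 lower, with a median of 0.50. ADAMTS1 is given above, and ADAMTS4 was at 76.7 and 62.4 TPM against 21.4 to 27.6 (1.43, limma adjusted p = 0.0317). The ADAMTS4 call was lost when any 1 of the 6 libraries was left out. Of the 10, 6 lay above and 3 below all controls, where 13.2% and 24.9% of all genes did. Not called were S100A4 (1.48), WNT9B (1.28), ADAMTS9 (0.51), CD44 (0.49), VEGFA (-0.13), CDH2 (-0.61), CDC42EP3 (-0.67) and ANGPT2 (-0.83). Of the remaining CRISPRi targets, CDH5 and NFAT5 differed by -0.11 and -0.34 and were not called.

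**Figure D3:**
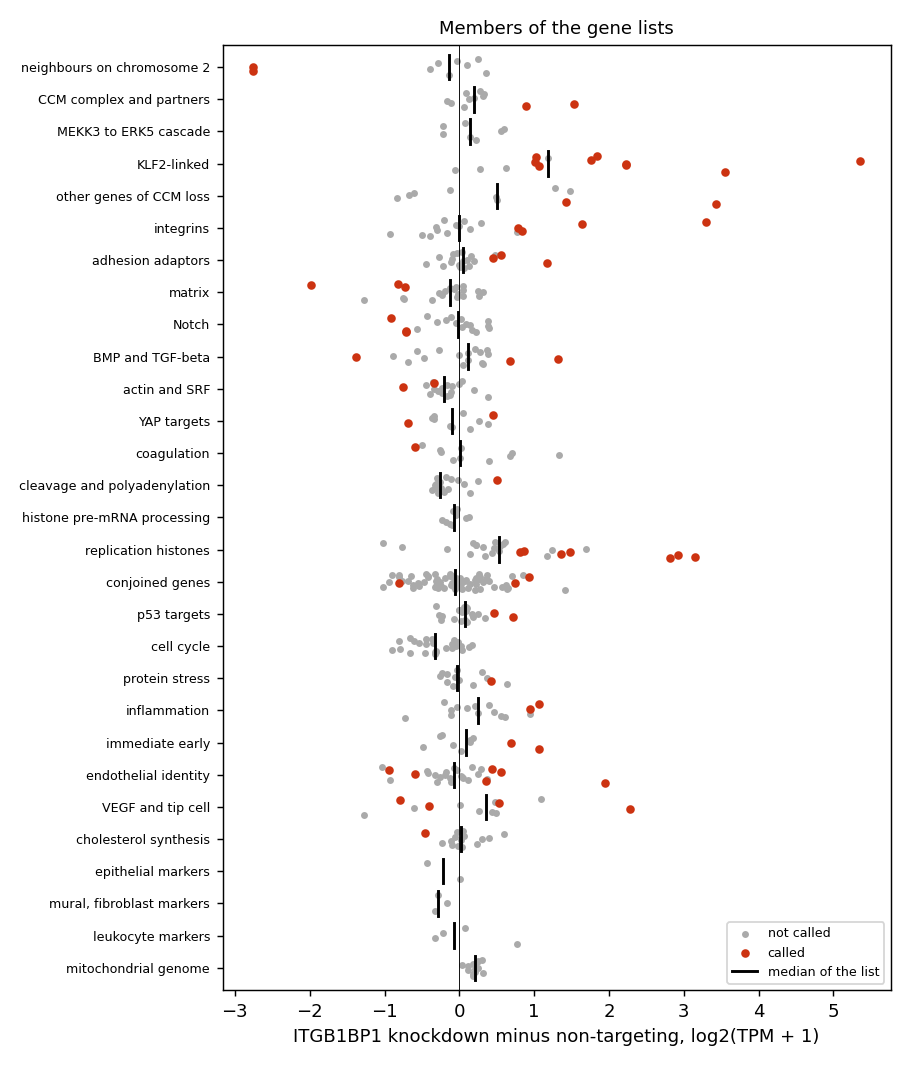
Difference of the ITGB1BP1 knockdown from the non-targeting libraries, in log2(TPM + 1), for every tested member of 29 gene lists. Each point is a gene, red where called, and the bar is the median of the list; the KLF2-linked list has its median at 1.19 and the replication histones at 0.53.

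Integrins are known partners of the ITGB1BP1 protein. Of 17 subunits tested (of 21 listed) 4 were higher and 0 lower, with a median of -0.01, where 3.34% of all genes were higher. Without C7 1 subunit was called higher and without G8 2 were. ITGB4, the laminin-binding β4 chain, was at 133 and 116 TPM against 14.3, 10.9, 11.1 and 11.2 (3.29 ± 0.29, limma adjusted p = 3.01e-06). The α6 chain ITGA6, its partner, was at 312 and 279 TPM against 161 to 187 (0.79), and ITGA3, another laminin receptor chain, at 333 and 304 against 158 to 199 (0.83). Both lost their calls with either guide alone, and ITGA3 also without the control D2. ITGB2, the leukocyte β2 chain, was low throughout, at 5.54 and 3.45 TPM against 0.265 to 1.14 (1.64), and lost its call without C7. Against the PDCD10 libraries ITGB2 was higher by 1.59 (limma adjusted p = 0.0235), a call lost without C7 (0.316) or D11 (0.133). ITGB1, the chain that ITGB1BP1 binds, was at 1081 and 1048 TPM against 1019 to 1139 and was not called (-0.05 ± 0.09). ITGB4 was at 148 and 126 TPM in the CCM2 libraries, and the difference from them of -0.14 was not called (limma adjusted p = 0.927).

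Of 20 integrin adaptors 3 were higher and 0 lower, where 3.34% of all genes were higher. LIMS2, the focal adhesion protein PINCH2, was at 190 and 182 TPM against 75.7 to 88.6 (1.17), TNS1 rose by 0.55 and the kinase SRC by 0.45. Among 21 matrix genes 0 were higher and 3 lower, where 4.36% of all genes were lower, and without C7 1 was lower. Their median was -0.13, beside -0.08 for all genes. The 3 were THBS1, TNC (tenascin C, 1.65 and 1.62 TPM against 2.696 to 4.56) and NID2 (nidogen 2, 11.3 and 15.8 TPM against 21.1 to 24.4). TNS1, SRC and TNC lost their calls with either guide alone, and LIMS2 and NID2 without C7. NID2 was not called either without the controls D8 or F4, or after rescaling by the median of ratios.

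Notch genes, which set arterial and tip cell states, fell where they were called. Of 18 tested 0 were higher and 3 were lower, against 4.36% of all genes, with a median of -0.01. NRARP, a feedback target of Notch, was at 5.403 and 6.43 TPM against 10.9 to 12.4 (-0.91). The ligand DLL4 was at 6.89 and 7.52 TPM against 11.5 to 14.3 (-0.71), and the target HES1 at 23.0 and 21.3 against 32.3 to 39.1 (-0.71). NRARP lost its call without C7. DLL4 and HES1 lost theirs when any 1 of the 6 libraries was left out or once values were rescaled by the median of ratios. Of 18 BMP and TGF-β genes 2 were higher and 1 lower, and of the 16 that passed the filter on the other targets alone 1 was higher and 1 lower. Over all genes tested 3.34% were higher and 4.36% lower. ID1 and ID3, related BMP targets, moved apart: ID1 was at 213 and 197 TPM against 73.8 to 92.5 (1.31), and ID3 at 14.9 and 16.1 against 37.0 to 46.6 (-1.38). The same opposition was seen in C2, F6, D11 and G1, where ID1 was at 324, 336, 185 and 133 TPM and ID3 at 16.3, 8.47, 10.4 and 23.6. BMPR1A, a BMP receptor, was at 1.52 and 1.00 TPM against 0.380 to 0.455 (0.67). It was under 1 TPM in all 22 other libraries, so it was tested only because it was high in C7 and G8. ID1 and BMPR1A lost their calls without C7, and ID3 with either guide alone.

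In the contractile system 0 of 18 actin and SRF genes were higher and 2 were lower, where 3.34% and 4.36% of all genes were. MYL9, a regulatory myosin light chain, was at 43.7 and 34.7 TPM against 57.4 to 72.3 (-0.75 ± 0.15, limma adjusted p = 0.00631). It was at 61.8 and 76.3 TPM in the PDCD10 libraries, and the difference from them of -0.80 was called (limma adjusted p = 0.0309). TPM1, a tropomyosin, was at 133 and 114 TPM against 146 to 164 (-0.34), and was lower than in the PDCD10 libraries by 0.54 (limma adjusted p = 0.0234). The call of TPM1 was lost with either guide alone and, with both, after rescaling by the median of ratios, while MYL9 was called with C7 left out and not with G8 left out. Against PDCD10 the MYL9 call was lost without C7 (adjusted p = 0.0929), G8 (0.203) or G1 (0.0690), and the TPM1 call without C7 (0.0670), G8 (0.176) or D11 (0.167). Of 11 YAP targets LATS2 was higher (0.44) and ARHGEF17 lower (-0.68), both lost with either guide alone.

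Because CPSF3 was lowered, genes of its pathway were examined. Of 21 other genes of the 3′ end processing machinery 1 was higher and 0 lower, where 3.34% and 4.36% of all genes were. Their median was -0.26 beside -0.08 for all genes, and 12 lay below all controls, where 24.9% of all genes did. The median of these 21 genes was -0.01 against the CCM2 libraries and 0.07 against the PDCD10 libraries. Against the mean of the other 9 targets it was -0.20, so the lowering was shared with CCM2 and PDCD10. SSU72, a phosphatase that acts with that machinery, was at 167 and 145 TPM against 107 to 112 in the controls (0.51 ± 0.09, limma adjusted p = 0.00255). Among the other 22 libraries SSU72 ran from 93.5 to 127 TPM, below both ITGB1BP1 libraries. It was called against CCM2 (0.66), PDCD10 (0.52) and the mean of the other 9 targets (0.49). Its calls were lost without C7 against the controls and CCM2 (adjusted p = 0.0636), without F6 against CCM2 (0.0644), and without C7 (0.275) or D11 (0.133) against PDCD10. PABPN1, a poly-A binding protein, was at 135 and 131 TPM against 163 to 169 (-0.32, limma adjusted p = 0.0630). In histone pre-mRNA processing limma called 0 of 10 genes, with 0 at an unadjusted p under 0.05, and INTS11 and LSM10, its most abundant members, differed by -0.18 and 0.12.

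Replication-dependent histone transcripts normally end in a stem-loop without a poly-A tail, so a poly-A library records only the small share that carries one. Of 89 such genes listed, 26 passed the filter, 31 were at 0 in all 6 libraries, and 22 passed it on the libraries of the other targets alone. Of the 26, 7 were called higher and 0 lower (median 0.53), where 3.34% of all genes were called higher, and of the 22, 5 were higher and 0 lower (median 0.50). The 89 genes summed to 185 TPM in C7 and 153 in G8, against 52.8 to 64.1 in the controls. HIST1H1C, a linker histone, was at 24.2 and 23.6 TPM against 2.17, 3.29, 1.94 and 2.94 in the controls (2.82 ± 0.29, limma adjusted p = 1.97e-05). HIST1H2AC, a histone H2A gene, was at 20.2 and 10.5 TPM against 0.351 to 1.45 (3.15 ± 0.31, limma adjusted p = 1.43e-05). HIST1H2BD, a histone H2B gene, was at 11.7 and 9.18 TPM against 0.220 to 0.997 (2.92 ± 0.39, limma adjusted p = 0.000225). In both guide libraries these 3 genes stood above all 22 other CRISPRi libraries, whose highest values were 4.56, 2.20 and 2.54 TPM. All 3 were also called against CCM2 (2.87, 2.93 and 2.26) and PDCD10 (2.49, 2.67 and 2.98), except that the HIST1H2BD call against CCM2 was lost without C7, G8 or C2 (adjusted p from 0.0774 to 0.152).

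HIST1H2BK was at 36.7 and 26.2 TPM against 9.58 to 15.0 (1.36), and was called against CCM2 (1.12), a call lost without C7 (adjusted p = 0.293), C2 (0.122) or F6 (0.138). HIST1H3H and HIST1H4I, which complete the 7 and were named after their values were seen, rose by 0.81 and 0.87. HIST1H3H lost its call with either guide alone or without D8 or F4, and HIST1H4I without C7 or any 1 control. HIST1H3H and HIST1H4H are the 2 called histones that passed the filter only with the ITGB1BP1 libraries. HIST1H4H was at 4.12 and 1.12 TPM against 0 to 0.355 and lost its call without C7 or the control D8. Of 26 cell cycle and replication genes, which normally move with histone synthesis, limma called 0, with 3 at an unadjusted p under 0.05. Their median was -0.32, and PCNA and MCM7 differed by -0.02 and -0.35. Without C7 4 replication histones were called and without G8 6 were.

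**Figure D4:**
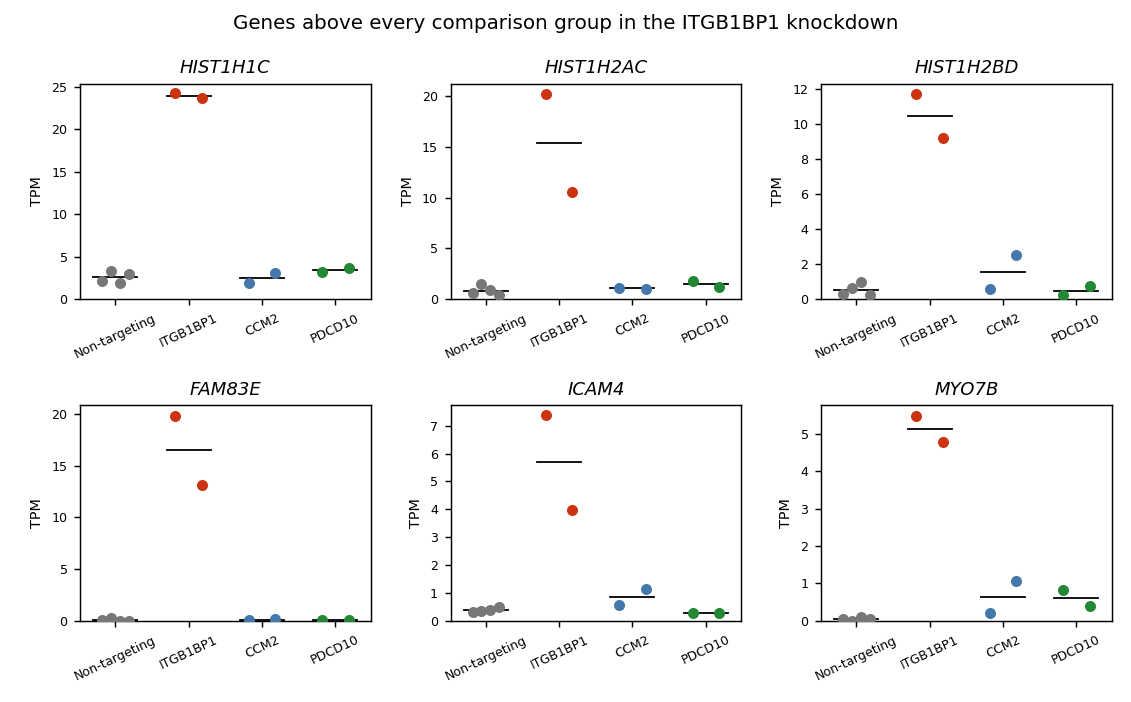
TPM (vertical axes, from 0) of 3 replication histones and 3 genes chosen after their values were seen. Each point is 1 library and each line is the group mean; both ITGB1BP1 libraries lie above every other library drawn.

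Genes called in the same direction against the controls, CCM2, PDCD10 and the mean of the other 9 targets numbered 61, with 30 higher and 31 lower, ITGB1BP1 and CPSF3 among the latter. FAM83E had the largest such rise. It was at 19.9 and 13.2 TPM in C7 and G8, at 0.0724, 0.295, 0 and 0 in the controls, and at 0.295 or less in all 22 other libraries (3.98 ± 0.20, limma adjusted p = 9.94e-10). FAM83E starts 0.474 kb downstream of RPL18, a ribosomal protein gene on the same strand, by the GENCODE 29 annotation. RPL18 was itself not higher, at 1670 and 1791 TPM against 2113 to 2314 (-0.37, limma adjusted p = 0.0633).

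This arrangement recurred among the 30 rises, so their neighbours were listed, a description chosen after the values were seen. A gene on the same strand ended within 5 kb upstream for 14 of the 30 rises and 2 of the 31 falls. It did so for 1730 of the 13781 genes that passed the filter on the other targets alone and were placed in the annotation. The upstream gene had at least 10 times the level in 10 of the rises and 0 of the falls, and in 330 of the 13781 genes. Levels here were means of the 18 libraries of the other targets. Rises that were tested only because they were high in C7 and G8 are low there. Such genes meet the ratio of 10 more readily, so the 10 and the 330 were not chosen alike. A convergent gene, ending towards it on the other strand, lay within 5 kb for 6 of the 30 rises and 13 of the 31 falls. The same held for 2650 of the 13781 genes. Of the 30, 24 passed the filter on the other targets alone. FAM83E, MYOZ3 and MYO7B were not among these 24, so they had to differ to be tested. FAM83E and MYOZ3 are counted in the 14, while genes of this kind are absent from the 13781, so the 2 shares were not chosen alike. ICAM4, an erythroid adhesion gene 0.352 kb downstream of ICAM1, was at 7.38 and 3.99 TPM against 0.303 to 0.494 (2.22). SPTBN5, a spectrin gene 1.86 kb downstream of EHD4, was at 6.94 and 4.98 TPM against 0.507 to 0.772 (2.08). MYOZ3, a muscle sarcomere gene 1.65 kb downstream of SYNPO, was at 5.99 and 3.26 TPM against 0.230 to 0.673 (1.91). CPT1B, a mitochondrial carnitine transferase 0.484 kb downstream of CHKB, was at 28.8 and 20.9 TPM against 11.3 to 13.8 (0.92). CHKB, a choline kinase, fell in the same libraries, at 23.1 and 27.5 TPM against 47.9 to 58.0 (-1.04). Of the upstream genes just named, ICAM1 (0.95) and SYNPO (0.43) were themselves called higher, and EHD4 (-0.08) was not called. SYNPO lost its call with either guide alone. MYO7B, an intestinal myosin gene, lies in the opposite orientation, with its end 0.652 kb from that of LIMS2. MYO7B was at 5.49 and 4.80 TPM against 0 to 0.107 (2.55), and LIMS2 was also called higher (1.17). PRR29, whose end overlaps that of ICAM2 on the other strand, was at 102 and 64.8 TPM against 12.04 to 19.2 (2.44). ICAM2 differed by 0.11 and was not called. The labels do not state strand-specific counting, so reads from a gene and from an opposing partner cannot be told apart. RCC1, the nucleotide exchange factor of Ran, whose nearest upstream gene PHACTR4 ended 5.57 kb away, was at 154 and 151 TPM against 51.3 to 58.7 (1.49). Among the falls AGPAT2, an acyltransferase of lipid synthesis, was at 15.1 and 14.2 TPM against 34.1 to 41.6 in the controls and 79.4 to 85.6 in C2, F6 and D11.

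Over the whole transcriptome the same arrangement was set beside other genes. Only genes that passed the filter on the 18 libraries of the other targets were used, and levels were ranked in those libraries, so that the ITGB1BP1 values chose none of them. Of 13781 such genes placed in the annotation, 3.25% were called higher and 4.46% lower, and their median was -0.08. With such an upstream gene at any level (1730 genes) 3.7% were higher and 5.72% lower, and at a lower level than their own (815 genes) 3.31% and 7.12%. Of 330 genes with a same-strand gene within 5 kb upstream at 10 times their level or more, 23 (6.97%) were higher and 10 (3.03%) lower, with a median of -0.0026 (0.02 in C7 and -0.04 in G8). Of the 63 with an upstream gene at 100 times their level or more, 7 (11.1%) were higher and 2 (3.17%) lower, with a median of 0.13 (0.14 in C7 and 0.05 in G8). With the upstream gene 5 to 20 kb away, 7 of 315 (2.22%) were higher and the median was -0.09. With a convergent gene within 5 kb at any level, 3.36% of 2650 genes were higher and 6.19% lower. With a convergent gene within 5 kb at 10 times their level or more, 3.39% of 443 genes were higher and 3.61% lower, with a median of -0.11. In the other 9 knockdowns, which share the controls, the class at 10 times had medians from -0.10 to 0.03, a range that holds the value seen here, and the class at 100 times had medians from -0.08 to 0.08. No test was made of these shares. Among 70 symbols that join 2 neighbouring genes (of 72 tested), passing the same filter, 2 were higher and 1 lower: TMED7-TICAM2 (0.94), IQCJ-SCHIP1 (0.74) and JMJD7-PLA2G4B (-0.81). Of all genes tested 3.34% were higher and 4.36% lower. TMED7-TICAM2 and IQCJ-SCHIP1 lost their calls with either guide alone. Values for joined symbols share reads with both of their genes and are uncertain.

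**Figure D5:**
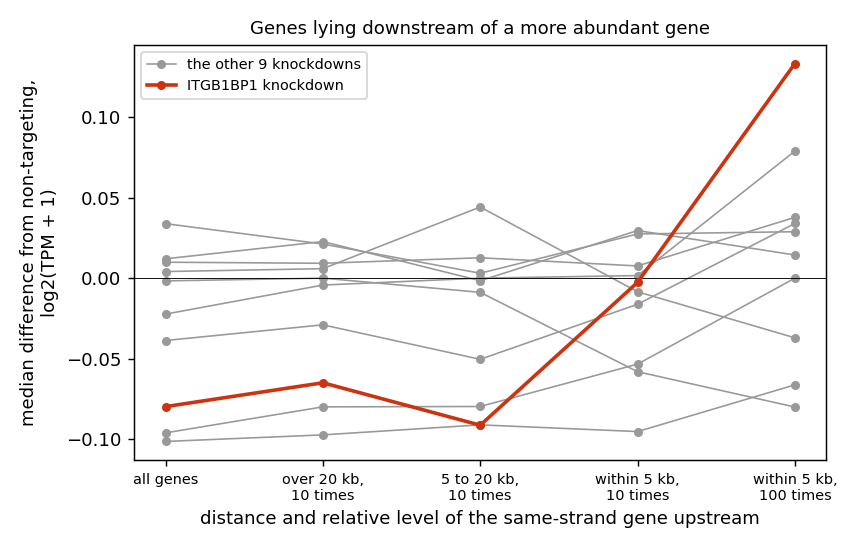
Median difference from the non-targeting libraries, in log2(TPM + 1), of genes grouped by the distance to, and relative level of, the same-strand gene upstream (horizontal axis). The ITGB1BP1 knockdown (red) rises from -0.08 over all genes to 0.13 in the 63 genes at the right; grey lines are the other 9 knockdowns, which share the controls.

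Endothelial identity was measured in 27 genes, of which 4 were higher and 2 lower (median -0.07), where 3.34% and 4.36% of all genes were. The line expressed its defining markers: PECAM1, CDH5, TIE1 and ERG were at 543, 365, 555 and 90.3 TPM in C7, none was called, and VWF was at 37.7 in C7 and 24.6 in G8 against 53.6 to 69.9 (-1.03, limma adjusted p = 0.159). CD34, a sialomucin of progenitor and tip cells, was at 61.6 and 34.9 TPM against 9.17 to 14.2 (1.95, limma adjusted p = 0.000784). MMRN2, an endothelial matrix protein, rose by 0.55, the factor SOX7 by 0.44 and the secreted EGFL7 by 0.35. MMRN2 lost its call with either guide alone, SOX7 without C7, and EGFL7 without C7, B6, D2 or F4 and under quantile normalisation. KDR, the main VEGF receptor, was at 59.1 and 54.3 TPM against 76.5 to 94.1 (-0.59), and SOX17, an arterial factor, at 13.4 and 16.1 against 27.3 to 29.8 (-0.94). SOX17 lost its call when any 1 of the 6 libraries was left out and KDR when any but F4 was, and both once values were rescaled by the median of ratios. SOX17 was not called under quantile normalisation, robust or untrended variances either. Of 12 VEGF and tip cell genes 2 were higher and 2 lower. ESM1, an endothelial proteoglycan, was at 50.1 and 52.95 TPM against 7.63 to 13.9 (2.28, lost with either guide alone), and PLXND1, a semaphorin receptor, rose by 0.53. VEGFB was at 45.1 and 48.0 TPM against 73.6 to 91.3 (-0.80), and NRP2 fell by 0.40. VEGFB and PLXND1 lost their calls without C7, NRP2 with either guide alone or once values were rescaled by the median of ratios. Against PDCD10 the differences of PLXND1 (0.51) and VEGFB (-0.78) were also called, and were lost without G1, at adjusted p of 0.0502 and 0.0973, and without C7, at 0.304 and 0.306, and for VEGFB without G8 (0.108).

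In haemostasis 1 of 11 genes outside the KLF2-linked list was called: TFPI, the tissue factor pathway inhibitor, was at 112 and 130 TPM against 181 to 184 (-0.60 ± 0.09, limma adjusted p = 0.000462). ANXA2, a cell surface receptor for plasminogen activation, differed by 0.39 and was not called. Beside each count in this paragraph, 7.7% of all genes tested were called, 3.34% higher and 4.36% lower. Of 15 inflammatory genes 2 were higher: ICAM1, at 250 and 217 TPM against 116 to 123 (0.95), and SELP, at 13.6 TPM in C7 but 4.59 in G8 against 2.61 to 4.66 (1.07), which overlapped with the controls. Immediate early genes, which also move with handling, had 2 of 10 higher, DUSP1 (1.06) and FOSL1 (0.69). Of 22 p53 targets FAS (0.72) and PHLDA3 (0.46) were higher, and of 13 protein and amino acid stress genes DDIT4 was higher (0.42), with HSPA5 and HSP90B1 at -0.26 and -0.06. DDIT4 was lower than in the CCM2 libraries by 0.59 (limma adjusted p = 0.00749), a call lost without C7 (0.0991) or C2 (0.0864). Of 15 cholesterol genes SC5D was lower (-0.46), with FDPS and FDFT1 at 0.23 and -0.10. The calls of ICAM1, SELP, FOSL1, FAS and PHLDA3 were lost without C7, and those of DUSP1, DDIT4 and SC5D with either guide alone. SC5D was also not called after rescaling by the median of ratios. Leaving out a control also ended calls: any 1 of the 4 for DUSP1, B6, D8 or F4 for SELP, SC5D and NRP2, B6, D2 or F4 for LATS2, and B6, D2 or D8 for TPM1.

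Most markers of other cell types were under 1 TPM in both groups. Of 10 epithelial markers 8 were under 1 TPM in all 6 libraries and 2 of these at 0, and the 10 summed to 6.39 and 5.62 TPM against 5.67 to 9.42 in the controls, most of it KRT7. Of 11 mural and fibroblast markers 8 were under 1 TPM and 2 of these at 0, and they summed to 10.7 and 10.4 TPM against 13.0 to 14.2, most of it RGS5. Of 10 leukocyte markers 6 were under 1 TPM and 2 of these at 0, and they summed to 60.6 and 71.0 TPM against 58.4 to 71.4, most of it CD68 and CD14. CD14, a lipopolysaccharide co-receptor named here after its values were seen, was at 20.3 and 24.0 TPM against 11.6 to 14.1 (0.77, limma adjusted p = 0.269, not called). CD3E and TYROBP were at 0 in all 6 libraries, as were KRT14, KRT20, LUM and DPT of the other lists. CD68 was lower than in the PDCD10 libraries by 1.66 (limma adjusted p = 0.0175), a call lost without C7 (0.221), G8 (0.0611) or D11 (0.140). Of the tested members of these 3 lists limma called 0 against the controls (0 at an unadjusted p under 0.05) and 0 of the 13 mitochondrially encoded genes (also 0 unadjusted), which summed to 40727 and 42730 TPM against 27092 to 42949. Their part in the differences was not tested.

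The 2 guide libraries resembled each other in most genes. Of 8640 genes with at least 10 TPM in 1 of the 6 libraries, 51 (0.590%) differed by 1 log2 unit or more between C7 and G8, and the median absolute difference was 0.14. TRIM27, chosen after its values were seen, was at 22.9 TPM in C7 and 1.04 in G8, but the controls themselves ran from 8.28 to 26.1 and it was not called (-1.18, limma adjusted p = 0.359). Genes called higher had a median of 0.93 in C7 and 0.80 in G8, with 357 of 472 farther from the controls in C7. Genes called lower had a median of -0.58 in C7 and -0.56 in G8, with 350 of 617 farther in C7.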

How the data were processed

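The deposited table gives TPM per gene symbol, computed by the authors; Bowtie2, kallisto and hg19 are named in the submitters' processing notes, with no versions. Per the labels' protocols the libraries were poly-A selected with an NEBNext kit; strandedness is not given in the sources used here. TPM keeps no depth, so the number of reads is unknown. Samples were grouped by title. Only the 24 CRISPRi libraries were fitted; the other 28 libraries of the series were not used here.

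log2(TPM + 1) was fitted with limma 3.58.1 (R 4.3.3, variance trend) over 11 groups and 24 libraries, with 13 residual degrees of freedom. Genes needed at least 1 TPM in at least 2 of the 24 libraries, p-values were adjusted over all genes by Benjamini-Hochberg, and a gene was called at an adjusted p under 0.05. The comparisons with non-targeting guides, CCM2, PDCD10 and the mean of the other 9 targets share the ITGB1BP1 libraries. Single values were also tested with exact permutation (scipy 1.17.1). Fold changes on the log2(TPM + 1) scale understate those of low genes. Scripts were tested on simulated data.

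Named genes were the neighbourhood of ITGB1BP1, KLF2, KLF4, THBD, NOS3, the CRISPRi targets, the 10 largest rises and 10 largest falls (at least 5 TPM in the higher group, called, no overlap), and from each list up to 5 called members, or, with fewer than 2 called, the 2 most abundant. Other genes are given to complete a list or an arrangement and were named after their values were seen. The members and lists were chosen with earlier results of these data known, and 2 of the 31 lists are not reported here. Guide sites were matched to GENCODE 29 transcripts and RefSeq promoters, both on GRCh38, and gene distances come from GENCODE 29. Alternatives were another pseudocount, 2 filters, 2 scalings, robust and untrended variances, a fit of only the groups compared, and leaving out each library.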

Additional observations from a re-analysis of the deposited data

Results flagged for a closer look

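Named genes that differed between knockdowns by limma at an adjusted p under 0.05 are given as ITGB1BP1 minus the other knockdown, in log2(TPM + 1). The targets differed as their titles say. ITGB1BP1 differed by -3.21 from CCM2 and -3.29 from PDCD10, CPSF3 by -2.69 and -2.52, CCM2 by 3.36 from the CCM2 libraries, and PDCD10 by 1.81 from the PDCD10 libraries (adjusted p = 0.0527 without C7).

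Higher in the ITGB1BP1 libraries than in CCM2 and PDCD10 were FAM83E (3.94 and 4.00), HIST1H1C (2.87 and 2.49), HIST1H2AC (2.93 and 2.67), HIST1H2BD (2.26 and 2.98) and SSU72 (0.66 and 0.52). ICAM4 (1.81 and 2.35), SPTBN5 (1.70 and 2.21), MYOZ3 (1.85 and 2.19), MYO7B (1.96 and 1.94), PRR29 (1.96 and 2.19), CPT1B (1.08 and 1.24) and RCC1 (2.07 and 1.52), named after their values were seen, were higher too. Lower than in both were AGPAT2 (-2.37 and -2.09), CHKB (-0.82 and -0.86) and TBC1D3C (-2.69 and -2.45). Without C7 the calls of CPT1B (adjusted p = 0.297 and 0.229) and CHKB (0.188 and 0.204) were lost, as were those of SPTBN5 (0.0586) and PRR29 (0.0636) against CCM2. Without C2 the calls of CPT1B (0.127) and CHKB (0.165) against CCM2 were lost, and without F6 that of CPT1B (0.142).

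Against CCM2 alone HIST1H2BK was higher (1.12), and TLNRD1 (-1.05), CALCRL (-0.72, adjusted p from 0.124 to 0.308 when any 1 of the 4 libraries was left out), DDIT4 (-0.59) and JMJD7-PLA2G4B (-0.83, lost when any 1 of the 4 libraries was left out, adjusted p from 0.111 to 0.170) were lower. PTPN5 was lower than in CCM2 (-1.84) and higher than in PDCD10 (1.52). Against PDCD10 alone ITGB2 (1.59) and PLXND1 (0.51) were higher, and IAH1 (-0.64), MYL9 (-0.80), TPM1 (-0.54), VEGFB (-0.78) and CD68 (-1.66) were lower. A call against 1 knockdown and not the other does not show that the 2 differ.

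In 5 genes 1 control library stood apart from the other 3: PDCD10 at 34.9 TPM, YWHAQ at 249.9, AL049629.2 at 11.6, ITGB4 at 14.3 and SOX17 at 27.3. Chance marks about 1 in 20 groups in this way.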

How the results depend on the processing

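Fitting only the groups compared called 1825 genes against the non-targeting libraries, 0 against CCM2 and 0 against PDCD10 (1547 and 936 at an unadjusted limma p under 0.05); these last fits hold 4 libraries. Leaving out 1 library gave 221 to 831 genes against the controls, 58 to 106 against CCM2 (67 without C7, 75 without G8, 106 without C2, 58 without F6), 35 to 1148 against PDCD10 and 158 to 352 against the other 9 targets. A group left with 1 library was assumed to vary like the others. Of the 1089 genes, 208 kept their call without C7 and 389 without G8. The share called higher was 43.3%, against 62.9% with median-of-ratios scaling, 55.0% with quantile normalisation and 51.6% with no filter. Leaving out 1 library moved KLF2 between 2.15 and 2.29 and THBD between 1.79 and 1.90. Both lost their calls with either guide alone. ITGB1BP1, CPSF3 and KLF4 kept theirs under all alternatives, KLF4 only just without C7. Of 88 called genes among those the naming rule or the text takes, 59 lost the call under at least 1 alternative and 0 changed sign. The causes were not tested. No paired analysis was possible because the knockdown titles carry no replicate numbers that the groups share. TPM keeps no depth, so counting error could not be given.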
